A study of Mus musculus with 10 samples.

Results

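The landscapes described here are the stretches of 1 Mb on either side of each of the 4 mouse Hox clusters, with the clusters themselves left out. Accessible regions were obtained by merging the peak lists of the 10 libraries, and a merged region was a member when it lay within 1 Mb of a cluster but outside it. Of 246799 merged regions, 1120 were members, 588 on the 3′ sides and 532 on the 5′ sides, and 245 others lay inside the clusters. The 5′ side is the one beyond the group 13 genes, and the 3′ side is the other, such as the one next to Hoxc4 in HoxC. On build mm10, the HoxA landscapes ran over chr6:51155367-52155366 (3′) and chr6:52260881-53260880 (5′), and those of HoxB over chr11:96368255-97368254 (3′) and chr11:95194316-96194315 (5′). Those of HoxC ran over chr15:103036857-104036856 (3′) and chr15:101921131-102921130 (5′), and those of HoxD over chr2:74766001-75766000 (3′) and chr2:73668000-74667999 (5′).

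The assay was ATAC-seq, which tags open DNA with sequencing adapters by means of a transposase. It was applied to untransfected ES-Bruce4 cells, an embryonic stem cell line from C57BL/6 mice, labelled WT (wild type) in all 10 libraries. All cells were kept on mouse embryo fibroblasts, depleted of these feeders, and then grown without serum in N2B27 medium with 10 ng/ml bFgf from day 0 and, from day 2, with 5 µM CHIR99021, which activates Wnt signalling by blocking Gsk3. There were 5 groups of 2 libraries, with 50000 cells in each library. Day 2 is labelled as epiblast stem cells derived from the embryonic stem cells. The others were day 3, day 6 and day 7 of the culture, and a day 7 culture that had received human Gdf11 at 50 ng/ml for 24 h. All 5 groups came from 1 cell line. Whether the 2 libraries of a group are separate cultures is not labelled, so the p-values cover only the spread between these libraries, which may be technical.

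Hox genes stand in clusters in the order in which they are switched on along the body axis, the 3′ genes first and the 5′ genes last. Much of their control lies outside the clusters: the gene-poor stretches beside HoxD carry limb and genital enhancers, and Wnt-responsive enhancers have been described 3′ of HoxA. Gdf11, a ligand of the TGF-beta family, drives the change from trunk to tail formation in the embryo, when the most 5′ Hox genes come on.

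In all, 27 promoters of 24 genes overlapped a changed flanking region. The promoters of 4 of these genes are shown, and the change of the accessible region over each is described below. Each is given 5′ to 3′ on the strand of its gene, from 250 bases before to 50 bases after a start listed for that gene. The starts are from RefSeq on GRCm38.p6, the assembly behind mm10. For Snx11 the start used lies inside the gene, whose span begins at chr11:96777712 on the minus strand. For the other genes shown it is where the gene's span begins. Capitals mark the bases that fall inside the accessible region. Evx1 (chr6:52313248-52313547, plus strand) encodes an even-skipped homeobox factor of the primitive streak, and Evx1os (chr6:52314783-52315082, minus strand) is its antisense transcript. Gm30528 (chr15:103060506-103060805, minus strand) is a non-coding transcript that starts 3′ of Hoxc4 and runs into the HoxC cluster, and Snx11 (chr11:96777506-96777805, minus strand) encodes a sorting nexin 3′ of HoxB.
Evx1: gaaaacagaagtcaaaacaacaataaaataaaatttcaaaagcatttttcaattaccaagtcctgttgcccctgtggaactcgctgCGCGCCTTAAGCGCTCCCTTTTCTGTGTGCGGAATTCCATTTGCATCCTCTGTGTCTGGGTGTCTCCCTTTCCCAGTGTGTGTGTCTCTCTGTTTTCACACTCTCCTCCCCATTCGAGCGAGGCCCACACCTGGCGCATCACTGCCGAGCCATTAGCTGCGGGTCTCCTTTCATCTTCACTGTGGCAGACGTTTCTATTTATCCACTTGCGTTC
Evx1os: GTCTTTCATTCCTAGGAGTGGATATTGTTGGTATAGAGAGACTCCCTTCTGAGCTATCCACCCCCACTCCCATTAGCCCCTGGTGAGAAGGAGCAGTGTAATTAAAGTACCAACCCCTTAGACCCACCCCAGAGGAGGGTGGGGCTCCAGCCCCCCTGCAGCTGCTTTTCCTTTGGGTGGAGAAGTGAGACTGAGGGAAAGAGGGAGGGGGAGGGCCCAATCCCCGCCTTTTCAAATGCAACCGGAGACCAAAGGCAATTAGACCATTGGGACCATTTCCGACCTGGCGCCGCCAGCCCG
Gm30528: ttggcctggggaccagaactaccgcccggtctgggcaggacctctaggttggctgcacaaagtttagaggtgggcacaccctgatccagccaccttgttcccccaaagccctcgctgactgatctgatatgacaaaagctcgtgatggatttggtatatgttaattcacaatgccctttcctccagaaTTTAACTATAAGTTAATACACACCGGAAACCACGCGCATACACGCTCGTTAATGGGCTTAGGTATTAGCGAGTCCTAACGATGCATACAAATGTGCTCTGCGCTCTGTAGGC
Snx11: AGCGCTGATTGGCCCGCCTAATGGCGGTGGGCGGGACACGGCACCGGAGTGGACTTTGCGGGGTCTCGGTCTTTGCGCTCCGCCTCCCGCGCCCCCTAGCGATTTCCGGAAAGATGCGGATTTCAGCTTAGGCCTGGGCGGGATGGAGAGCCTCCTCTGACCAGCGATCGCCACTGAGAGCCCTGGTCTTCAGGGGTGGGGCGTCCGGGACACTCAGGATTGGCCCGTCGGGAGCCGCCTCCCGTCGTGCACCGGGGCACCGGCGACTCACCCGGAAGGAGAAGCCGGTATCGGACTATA

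All 300 bases of the Evx1os and Snx11 promoters lay inside an accessible region, against 214 of the Evx1 promoter and 112 of the Gm30528 promoter. The Snx11 promoter held 31 CpG and had a GC content of 67.0%, and the Evx1os promoter held 6 CpG at 56.3%. Both strands were searched for CTTTGAT, the core recognised by LEF and TCF factors, and for CCATAAA, the core recognised by Cdx factors, 2 words that do not overlap each other. Neither word was found in these 4 windows, nor in any of the 27 promoters that overlapped a changed flanking region. Of 116 promoters that overlapped a flanking region, 4 held CTTTGAT and 1 held CCATAAA, and over all 32851 promoters the shares were 3.73% and 2.75%. Promoters that overlapped a flanking region held a median of 20 CpG, against 7 over all promoters. An absent word says only that its letters are not in that window.

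Total counts over all regions ran from 7150334 to 12335735 per library. Mitochondrial regions took 9.25% to 13.4% of them. Levels are in CPM, the counts of a region per 1000000 counts of its library, scaled for composition. Regions assigned to 6 pluripotency and epiblast genes summed to between 466 and 508 CPM on day 2 and between 315 and 336 CPM on day 3. Those of 8 neuromesodermal and caudal epiblast genes summed to between 267 and 291 CPM on day 2 and between 502 and 504 CPM on day 3, and 7 of the 8 genes were higher in both day 3 libraries than in both day 2 libraries. Over 5 fibroblast genes, which mark feeder cells, the sum was 138 to 187 CPM in the 10 libraries, and none of these genes was at 0 in any library; their part in the results was not tested. For bulk cells, fewer cells with a region open and a less open region in every cell cannot be told apart.

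The 8 landscapes differed in how many genes and accessible regions they hold. Protein-coding genes numbered 6 on the 3′ and 4 on the 5′ side of HoxA, 21 and 20 for HoxB, 15 and 30 for HoxC, and 4 and 5 for HoxD. Accessible regions numbered 135 and 85 around HoxA, 185 and 182 around HoxB, 152 and 175 around HoxC, and 116 and 90 around HoxD. Gene-poor landscapes also had more regions far from genes: 46 of 116 regions 3′ of HoxD and 43 of 90 on its 5′ side lay over 50 kb from any protein-coding gene, against 0 of 185 on the 3′ side of HoxB. In all, 188 of the 1120 regions (16.8%) lay within 1 kb of an end of a gene, against 11.7% of all regions.

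Of the 1120 regions, 854 had enough counts to be tested and 266 did not. The untested ones numbered 121 on the 3′ sides and 145 on the 5′ sides. A peak was called in all 10 libraries in 192 flanking regions (17.1%, against 13.1% of all regions), and in a single library in 375 (33.5%, against 39.5%). Both libraries of a group had a peak in 420 flanking regions on day 2, 364 on day 3, 322 on day 6, 376 on day 7 and 331 with Gdf11. These were 37.5%, 32.5%, 28.75%, 33.6% and 29.6% of the flanking regions. Over all regions the shares were 29.9%, 27.1%, 24.4%, 27.5% and 26.8%, which were likewise highest on day 2 and lowest on day 6. On the 3′ side of HoxD such regions numbered 29, 23, 29, 40 and 32 in the same order of groups (25.0%, 19.8%, 25.0%, 34.5% and 27.6%). On its 5′ side they numbered 27, 27, 17, 25 and 16 (30.0%, 30.0%, 18.9%, 27.8% and 17.8%). Library depths differed, and their part in the peak numbers was not tested.

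Strong flanking regions often lay at gene ends: of the 18 with a mean above 20 CPM on the 5′ side of HoxC 13 did, of the 13 on the 3′ side of HoxB 10 did, but of the 7 on the 3′ side of HoxA 2 did. On the 5′ side of HoxC the highest mean level was at Sp1, the gene of a widely expressed transcription factor, where chr15:102405253-102406348 held 151 and 147 CPM on day 2, 146 and 156 on day 3, 147 and 149 on day 6, 167 and 181 on day 7 and 129 and 141 with Gdf11. The region at Hnrnpa1, an RNA-binding protein gene 3′ of HoxC, held 109 and 106 CPM on day 2, 125 and 128 on day 3, 114 and 117 on day 6, 135 and 139 on day 7 and 96.9 and 115 with Gdf11. Neither passed the test in any of the 5 comparisons, and at Sp1 both Gdf11 libraries were below every other library. Most flanking regions were far weaker, with a median of the mean level between 0.981 CPM (5′ of HoxA) and 2.41 CPM (5′ of HoxC).

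Summed over 1 Mb, the 3′ and 5′ landscapes of a cluster differed in their course over the groups. The 3′ side of HoxA held 568 and 618 CPM on day 2, 576 and 578 on day 3, 574 and 569 on day 6, 696 and 721 on day 7 and 575 and 557 with Gdf11, so day 7 without Gdf11 stood above all other groups. Its 5′ side held 188 and 223 CPM on day 2, 217 and 203 on day 3, 219 and 213 on day 6, 217 and 218 on day 7 and 229 and 235 with Gdf11, where the Gdf11 pair was above every other library and the other groups overlapped. On the 3′ side of HoxB the sum was 1154 and 1298 CPM on day 2, 1024 and 1099 on day 3, 934 and 943 on day 6, 1083 and 1193 on day 7 and 857 and 863 with Gdf11, with day 6 below days 2, 3 and 7 and the Gdf11 pair lowest. Its 5′ side held 909.8 and 1043 CPM on day 2, 842 and 918 on day 3, 702 and 727 on day 6, 733 and 773 on day 7 and 684 and 668 with Gdf11, so that days 6 and 7 and Gdf11 were all below days 2 and 3.

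On the 3′ side of HoxC the sum was 807 and 861 CPM on day 2, 799 and 831 on day 3, 895 and 893 on day 6, 925 and 969.9 on day 7 and 808 and 807 with Gdf11, with day 7 again above every other group. Its 5′ side held 1312 and 1496 CPM on day 2, 1291 and 1401 on day 3, 1203 and 1221 on day 6, 1180.0 and 1219 on day 7 and 1067 and 1074 with Gdf11, with days 2 and 3 above the later groups and Gdf11 lowest. Around HoxD the 3′ side held 276 and 312 CPM on day 2, 326 and 348 on day 3, 375 and 382 on day 6, 382 and 388 on day 7 and 353 and 349 with Gdf11. The 5′ side held 285 and 318 CPM on day 2, 292 and 312 on day 3, 278 and 278 on day 6, 285 and 282 on day 7 and 262 and 248 with Gdf11. On the 3′ sides of HoxC and HoxD, both libraries of days 6 and 7 stood above those of days 2 and 3 and of Gdf11, which was not so on the other 6 sides.

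**Figure D1:**
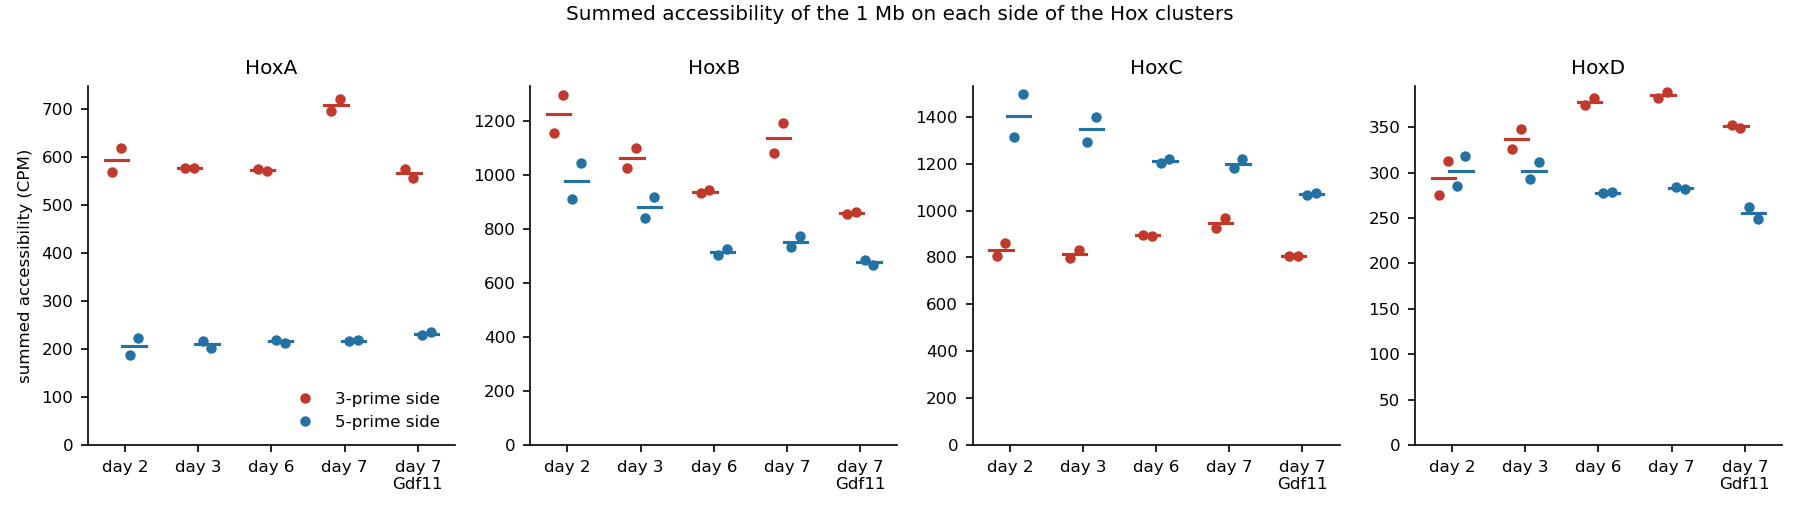
Summed accessibility (CPM, vertical axis from 0) of the regions in the 1 Mb on the 3′ side (red) and the 5′ side (blue) of each Hox cluster, by group; points are libraries and short lines the mean of 2. The 3′ sides of HoxA and HoxB were higher on day 7 (696 and 721 CPM for HoxA) than on day 6 or with Gdf11.

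Relative to the clusters they flank, the landscapes stood highest on day 2, when the sums inside the clusters were lowest. This is given as a description with no test. The sum inside HoxA was 153 and 184 CPM on day 2, 311 and 296 on day 3, 353 and 350 on day 6, 451 and 511 on day 7 and 341 and 363 with Gdf11. Inside HoxD it was 148 and 163, 210 and 228, 295 and 287, 370 and 384 and 262 and 294 CPM in the same order. The sums of the landscapes themselves are given above. The 3′ sum of HoxA divided by the sum inside HoxA was 3.72 and 3.37 on day 2, 1.85 and 1.95 on day 3, 1.63 and 1.63 on day 6, 1.54 and 1.41 on day 7 and 1.69 and 1.53 with Gdf11. For the 5′ side of HoxD the same ratio was 1.92 and 1.96 on day 2, 1.39 and 1.37 on day 3, 0.939 and 0.971 on day 6, 0.769 and 0.735 on day 7 and 1.002 and 0.845 with Gdf11. In both, every later library was below both day 2 libraries, and the lowest library was one of day 7. For the other 6 sides too, both day 2 libraries had the highest ratios.

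The comparison of day 3 with day 2 covers the first day after CHIR99021 was added. Wnt activity itself was not measured here. Accessibility rose at 78 of the 854 tested flanking regions (9.13%) and fell at 49 (5.74%), against 8.82% and 4.35% of all 173175 tested regions, so the landscapes as a whole changed about as often as the genome. Calls were made by edgeR's quasi-likelihood test at an adjusted p under 0.05, and log2 changes are given with their standard error. On the 3′ sides 50 of 467 rose and 29 fell. On the 5′ sides 28 of 387 rose and 20 fell. The median log2 change over tested flanking regions was -0.05, beside 0.07 over all regions. Inside the clusters 69 of 232 rose and 6 fell.

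Within 50 kb on the 3′ sides 9 of 41 tested regions rose (22.0%), including 6 of 14 next to Hoxc4, and 3 of the 41 fell. Within 50 kb on the 5′ sides 1 of 17 rose and 1 fell. Counts called over all flanks went to between 78 and 95, from 127, when 1 library was left out, with the lowest count without day 2 replicate 1 and a count of 82 when replicate 1 of day 3 was dropped.

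Around Skap2, an adaptor protein gene of blood cells 3′ of HoxA, single regions moved in opposite directions. A region inside Skap2, 207 kb from the cluster at chr6:51947696-51948429, held 3.14 and 2.61 CPM on day 2, 14.6 and 15 on day 3, 17.7 and 12.6 on day 6, 21.1 and 24 on day 7 and 11.3 and 10.5 with Gdf11. Both day 2 libraries were below every later library, and the log2 change to day 3 was 2.35 ± 0.26 (SE; 5.09-fold higher, adjusted p = 6.19e-10). At chr6:52078450-52079279, outside Skap2 and 76.1 kb from the cluster, the level was 52.5 and 50.9 CPM on day 2, 25.1 and 22.2 on day 3, 15.1 and 11.2 on day 6, 13.9 and 13.1 on day 7 and 9.79 and 9.47 with Gdf11. The highest values were those of day 2, and the change to day 3 was -1.12 ± 0.18 (SE; 2.18-fold lower, adjusted p = 2.96e-06).

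Further out on the 3′ side of HoxA, 388 kb away at chr6:51766404-51767009, a region open on day 2 was nearly closed a day later, at 27.7 and 25.5 CPM on day 2, 3.31 and 2.74 on day 3, 2.48 and 1.23 on day 6, 2.7 and 2.21 on day 7 and 2.62 and 3.87 with Gdf11. Its change was -3.11 ± 0.29 (SE; 8.63-fold lower, adjusted p = 1.68e-12), and no later group overlapped day 2.

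On the 5′ side of HoxA 8 of 59 tested regions rose and 3 fell, and of the 8 that rose 2 lay at Evx1 and 2 at Hibadh. Inside Evx1, at chr6:52314605-52315113, 53.7 kb from the cluster, the region that contains the Evx1os promoter printed above held 2.4 and 3.92 CPM on day 2, 20.5 and 17 on day 3, 8.39 and 6.84 on day 6, 4.32 and 3.24 on day 7 and 6.25 and 5.49 with Gdf11. Day 3 stood above all other groups: the log2 change was 2.59 ± 0.29 (SE; 6.04-fold higher, adjusted p = 4.47e-10) from day 2 and -1.29 ± 0.25 (SE; 2.45-fold lower, adjusted p = 0.00014) from day 3 to day 6. The region over the Evx1 promoter, chr6:52313334-52313774, chosen for its sequence after its values were seen, held 3.45 and 5.75 CPM on day 2, 8.58 and 11.1 on day 3, 8.71 and 6.84 on day 6, 3.69 and 6.33 on day 7 and 5.23 and 8.83 with Gdf11. It rose by 1.10 ± 0.31 (SE; 2.14-fold higher, adjusted p = 0.011). Leaving out day 2 replicate 1 gave 0.75 (adjusted p = 0.22) for this change, and dropping day 3 replicate 2 gave 0.90 (adjusted p = 0.1). ATAC-seq carries no strand, so accessibility here cannot be assigned to Evx1 or to Evx1os.

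Hibadh, an enzyme gene of valine breakdown, had 2 of its 7 tested regions rise. Inside it, at chr6:52567195-52567800, the level was 0 and 0.523 CPM on day 2, 8.75 and 8.08 on day 3, 6.39 and 4.1 on day 6, 6.39 and 8.1 on day 7 and 4.3 and 5.06 with Gdf11. Day 2 was at or near 0 in both libraries, and the change was 5.10 ± 0.54 (SE; 34.2-fold higher, adjusted p = 7.85e-11). The size of this change rests on the few day 2 counts: it was 3.97 when day 2 replicate 1, the library at 0, was left out, and the fitted 9.35 when replicate 2 was left out is no bound. Another region, not among the 7, lay 5773 bases outside Hibadh at chr6:52539940-52540457. Its values were 0 and 0.915 CPM on day 2, 10.9 and 11.5 on day 3, 9.75 and 9.3 on day 6, 12.1 and 11 on day 7 and 6.08 and 3.66 with Gdf11, a change of 4.72 ± 0.46 (SE; 26.4-fold higher, adjusted p = 7.85e-12). There too the library at 0 was day 2 replicate 1, and the fit gave 3.58 once it was dropped and 9.75 once replicate 2 was. At the far end of that landscape, chr6:53201179-53201600, 940.3 kb from the cluster and 85.6 kb from Creb5, a transcription factor gene, fell from 15.6 and 17 CPM on day 2 to 3.31 and 3.03 on day 3, a log2 change of -2.35 ± 0.32 (SE; 5.08-fold lower, adjusted p = 1.18e-07).

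Within 500 kb of HoxA the 5′ side held 101 and 115 CPM on day 2, 161 and 145 on day 3, 156 and 154 on day 6, 160.4 and 160.2 on day 7 and 149 and 157 with Gdf11, with both day 2 libraries below every other library. Its sum changed from day 2 to day 3 by 0.52 ± 0.08 (SE; 1.43-fold higher, adjusted p = 3.37e-06) in the edgeR fit of 500 kb windows, and that of the 3′ side by -0.18 ± 0.06 (SE; 1.14-fold lower, adjusted p = 0.0216). The ratio of the 3′ to the 5′ sum changed by -0.69 ± 0.09 (SE; 1.62-fold lower, adjusted p = 4.13e-08) in a limma fit over pairs of neighbouring windows. Over 1 Mb the same ratio changed by -0.07 ± 0.08 (SE; 1.05-fold lower, adjusted p = 0.46), which did not pass. At 500 kb, 37.0% of windows and 36.1% of pairs of the genome passed in this comparison.

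The 3′ side of HoxB runs through Skap1, a T cell adaptor gene, and 5 of the 33 tested regions of Skap1 rose and 3 fell. Inside Skap1, 274 kb from the cluster at chr11:96642371-96643039, the level was 0.523 and 0.915 CPM on day 2, 19.6 and 18.2 on day 3, 24.2 and 17.6 on day 6, 17.5 and 20.2 on day 7 and 7.17 and 8.72 with Gdf11. Day 2 was below 1 CPM in both libraries and no later library overlapped it, with a change of 4.73 ± 0.34 (SE; 26.6-fold higher, adjusted p = 7.37e-17). Another Skap1 region, chr11:96482704-96483054, held 3 counts in all on day 2 and 4.5 and 7.5 CPM on day 3. Beside Cbx1, which encodes the heterochromatin protein HP1 beta, chr11:96786734-96787003 fell from 11.2 and 10.2 CPM on day 2 to 2.29 and 2.45 on day 3, a log2 change of -2.17 ± 0.39 (SE; 4.51-fold lower, adjusted p = 3.68e-05).

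As a sum the 5′ side of HoxB changed by -0.15 ± 0.07 SE (adjusted p = 0.0712) in the 1 Mb window fit. It passed in DESeq2 (-0.16, adjusted p = 0.0339) and with regions near gene ends left out (-0.30, adjusted p = 0.00196), but not over 500 kb (-0.18, adjusted p = 0.0607). The ratio of the 3′ to the 5′ sum changed by -0.06 ± 0.04 SE (adjusted p = 0.269) in the limma fit. The 3′ sum fell by 0.21 ± 0.07 (SE; 1.16-fold lower, adjusted p = 0.0183) in the window fit, in which 39.5% of the 2575 windows of the genome passed. This change was -0.12 (adjusted p = 0.125) with day 2 replicate 2 left out, and dropping day 3 replicate 1 gave -0.16 (adjusted p = 0.118). 5′ of HoxB, 1.15 kb from Kat7, a histone acetyltransferase gene, chr11:95311395-95311825 held 36 and 32.6 CPM on day 2, 15.3 and 14.7 on day 3, 4.39 and 4.65 on day 6, 3.96 and 3.54 on day 7 and 5.4 and 4.2 with Gdf11. Days 2, 3 and 6 did not overlap, and the changes were -1.19 ± 0.21 (SE; 2.28-fold lower, adjusted p = 1.9e-05) to day 3 and -1.74 ± 0.24 (SE; 3.33-fold lower, adjusted p = 1.89e-07) from day 3 to day 6.

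On the 3′ side of HoxC 18 of 124 tested regions rose and 7 fell, and on its 5′ side 9 of 135 rose and 5 fell. At chr15:103042198-103042768, 5.34 kb from Hoxc4, the level was 0.627 and 1.83 CPM on day 2, 29 and 33.2 on day 3, 19.6 and 19.7 on day 6, 16.6 and 16.5 on day 7 and 10.2 and 7.64 with Gdf11. Day 3 was the highest group and day 2 the lowest, with no overlap with the others, and the rise was 4.71 ± 0.30 (SE; 26.2-fold higher, adjusted p = 8.21e-19). The rise was 4.07 when day 2 replicate 1 was dropped and 5.55 when replicate 2 was. The nearest tested region, chr15:103038743-103039163, held 1.88 and 2.88 CPM on day 2, 6.96 and 6.35 on day 3, 11.7 and 11.1 on day 6, 19.1 and 28.9 on day 7 and 7.93 and 14.2 with Gdf11 and rose by 1.51 ± 0.33 (SE; 2.85-fold higher, adjusted p = 0.00063). At 8.65 kb from Smug1, a DNA repair gene, chr15:103177587-103178123 rose from 1.46 and 1.83 CPM on day 2 to 13.3 and 17.8 on day 3, a log2 change of 3.22 ± 0.29 (SE; 9.33-fold higher, adjusted p = 2.87e-13).

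The region over the Gm30528 promoter printed above, chr15:103060242-103060617, chosen for its sequence after its values were seen, held 1.67 and 0.915 CPM on day 2, 4.08 and 4.91 on day 3, 9.03 and 6.7 on day 6, 14.1 and 16.9 on day 7 and 5.74 and 8.61 with Gdf11. It rose from day 2 to day 3 by 1.73 ± 0.39 (SE; 3.32-fold higher, adjusted p = 0.000975) and from day 3 to day 6 by 0.85 ± 0.30 (SE; 1.8-fold higher, adjusted p = 0.0418). With day 3 replicate 1 left out the change to day 6 was 0.70 (adjusted p = 0.28), dropping day 3 replicate 2 gave 0.95 (adjusted p = 0.0783) and dropping day 6 replicate 1 gave 0.61 (adjusted p = 0.409). In DESeq2 that change was 0.84 (adjusted p = 0.136). Inside Pde1b, a phosphodiesterase gene further 3′, 2 adjoining regions fell. The change was -1.95 ± 0.20 (SE; 3.88-fold lower, adjusted p = 4.73e-11) at chr15:103519365-103520349 and -2.10 ± 0.28 (SE; 4.3-fold lower, adjusted p = 4.31e-08) at chr15:103518699-103519199. 5′ of HoxC, a region inside Rarg, which encodes retinoic acid receptor gamma, held 0.523 and 1.7 CPM on day 2, 6.2 and 6.21 on day 3, 2.16 and 3.69 on day 6, 1.98 and 1.33 on day 7 and 1.6 and 1.08 with Gdf11 at chr15:102243891-102244065. It stood highest on day 3, with a rise of 2.53 ± 0.48 (SE; 5.76-fold higher, adjusted p = 9.22e-05). Dropping day 2 replicate 1 gave 1.85 and dropping its replicate 2 gave 3.49.

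Around HoxD the 3′ side, which holds Mtx2, a gene of mitochondrial protein import, had 12 of 83 tested regions rise and 1 fall, and the 5′ side had 4 of 64 rise and 1 fall. In the stretch without protein-coding genes beyond Mtx2, chr2:75063015-75063614, inside the long non-coding RNA gene Gm46748, held 0.209 and 0.915 CPM on day 2, 9.6 and 8.8 on day 3, 5.19 and 2.46 on day 6, 2.79 and 2.21 on day 7 and 2.7 and 3.55 with Gdf11. Day 3 was above every other group, and the rise from day 2 was 4.09 ± 0.49 (SE; 17.1-fold higher, adjusted p = 2.83e-09). It was 3.31 when day 2 replicate 1 was left out and 5.33 when replicate 2 was. A second region, chr2:75000380-75000822, rose from 0.836 and 0.784 CPM on day 2 to 4.84 and 5.34 on day 3, a log2 change of 2.62 ± 0.44 (SE; 6.15-fold higher, adjusted p = 9.11e-06) and was at 3.83 to 6.39 CPM in all later libraries.

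The 3′ sum of HoxD rose by 0.20 ± 0.06 (SE; 1.15-fold higher, adjusted p = 0.00757), and its ratio to the 5′ sum by 0.20 ± 0.06 (SE; 1.15-fold higher, adjusted p = 0.0168) (37.9% of pairs of the genome passed). Dropping day 2 replicate 1 took the change of the sum to 0.11 (adjusted p = 0.15), and dropping day 3 replicate 2 gave 0.15 (adjusted p = 0.0763). When day 2 replicate 1 was dropped, the change of the ratio was 0.18 (adjusted p = 0.0731), dropping day 3 replicate 1 gave 0.20 (adjusted p = 0.056) and dropping day 3 replicate 2 gave 0.20 (adjusted p = 0.0676). On the 5′ side, beyond Lnpk at chr2:74257326-74257801, no read was counted on day 2 in either library, against 4.76 and 4.04 CPM on day 3, which is at least 25.2-fold higher with 3 counts allowed over the 2 day 2 libraries. Between Lnpk and Atp5g3, an ATP synthase subunit gene, chr2:74073357-74073960 rose from 1.15 and 2.09 CPM on day 2 to 7.73 and 4.91 on day 3, a log2 change of 2.02 ± 0.36 (SE; 4.07-fold higher, adjusted p = 2.61e-05). In the same stretch, chr2:74123396-74123795 fell from 11.3 and 7.06 CPM on day 2 to 1.95 and 2.89 on day 3, a log2 change of -1.97 ± 0.38 (SE; 3.91-fold lower, adjusted p = 0.000104).

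**Figure D2:**
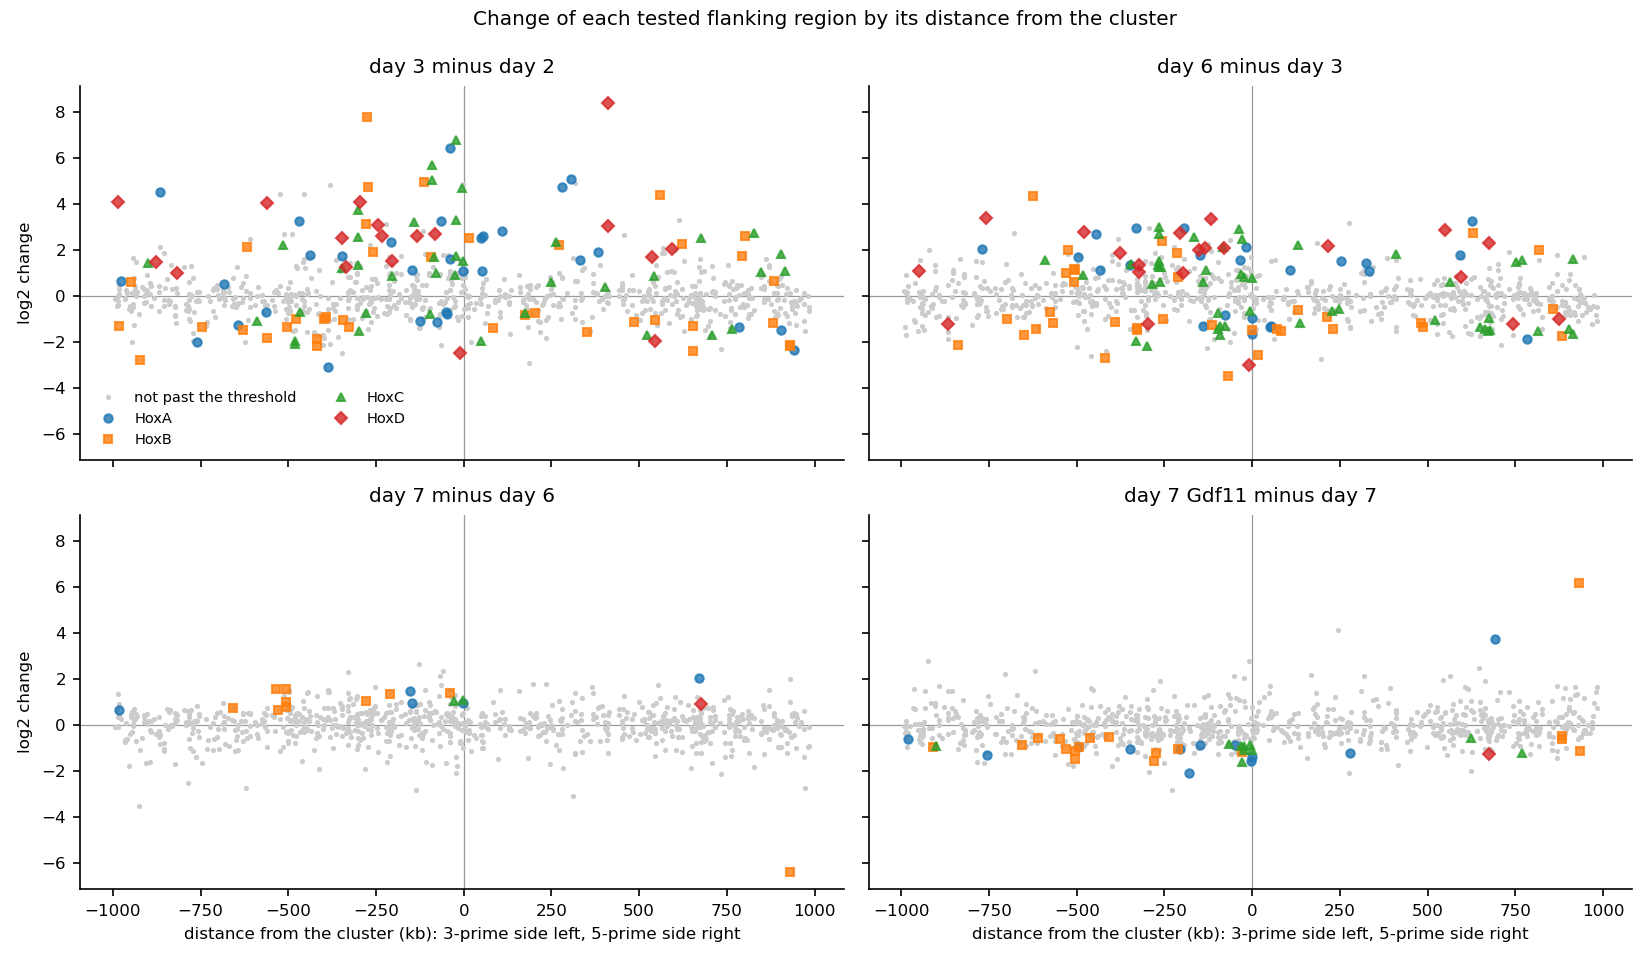
Log2 change of each of the 854 tested flanking regions (vertical axis) against its distance from its cluster in kb (horizontal axis, 3′ side left of 0 and 5′ side right of 0) in 4 comparisons; grey points did not pass the test and coloured marks, by cluster, did. Coloured marks lie on both sides and both directions at day 3 and day 6, while the 15 regions higher on day 7 than on day 6 and the 32 lower with Gdf11 on the 3′ sides lie to the left of 0.

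From day 3 to day 6, in cultures given CHIR99021 from day 2, accessibility rose at 69 of 854 tested flanking regions and fell at 56. The shares of all tested regions were 9.19% and 6.05%. On the 3′ sides 51 of 467 rose (10.9%) and 29 fell, with a median log2 change of 0.13. On the 5′ sides 18 of 387 rose (4.65%) and 27 fell, with a median of -0.14, beside 0.02 over all regions. Left-out libraries took the number called from 125 to between 60 (without day 6 replicate 1) and 85, with 79 when replicate 2 of day 3 was dropped.

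The smallest adjusted p among the flanking regions here was in the gene-poor landscape 3′ of HoxD. At chr2:74970697-74971370, 205 kb from the cluster and beyond Mtx2, the level was 1.15 and 1.44 CPM on day 2, 3.82 and 3.46 on day 3, 25.7 and 22.7 on day 6, 24.1 and 28.3 on day 7 and 16 and 19.2 with Gdf11. The groups from day 6 on did not overlap the earlier ones, and the change to day 6 was 2.72 ± 0.24 (SE; 6.6-fold higher, adjusted p = 4.24e-13). A region 478 kb out at chr2:75244491-75245106 went from 0.934 and 1.88 CPM on day 3 to 11.1 and 6.57 on day 6, a rise of 2.77 ± 0.38 (SE; 6.81-fold higher, adjusted p = 1.47e-07). In all, 12 of 83 tested regions 3′ of HoxD rose and 3 fell.

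Within 500 kb the 3′ side of HoxD held 72.4 and 78.1 CPM on day 2, 97.7 and 88.4 on day 3, 152 and 142 on day 6, 149 and 149 on day 7 and 138 and 135 with Gdf11. It rose at each step up to day 6, by 0.32 ± 0.08 (SE; 1.2-fold higher, adjusted p = 0.0028) and then by 0.66 ± 0.08 (SE; 1.58-fold higher, adjusted p = 3.73e-08), in fits where 37.0% and 42.3% of 500 kb windows passed. The 500 kb 5′ side fell by 0.29 ± 0.09 (SE; 1.22-fold lower, adjusted p = 0.0118) between day 3 and day 6. The 3′ to 5′ ratio over 500 kb rose by 0.95 ± 0.11 (SE; 1.94-fold higher, adjusted p = 6.58e-09), where 42.0% of pairs passed. Over 1 Mb the ratio was 0.967 and 0.982 on day 2, 1.12 and 1.12 on day 3, 1.35 and 1.37 on day 6, 1.34 and 1.38 on day 7 and 1.35 and 1.4 with Gdf11, with no overlap between day 2, day 3 and the later groups, and rose by 0.29 ± 0.06 (SE; 1.22-fold higher, adjusted p = 0.000636) from day 3 to day 6, where 44.0% of pairs passed. The 1 Mb sum rose by 0.17 ± 0.05 (SE; 1.12-fold higher, adjusted p = 0.0161), where 43.9% of windows passed. For the change of this sum, dropping day 3 replicate 1 gave 0.13 (adjusted p = 0.14), and dropping day 6 replicate 2 gave 0.15 (adjusted p = 0.08).

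On its 5′ side HoxD had 4 of 64 regions rise and 2 fall. Between Lnpk and Atp5g3, at chr2:73991684-73992190, 676 kb from the cluster, the level was 1.05 and 1.57 CPM on day 2, 2.8 and 2.45 on day 3, 15.1 and 10.7 on day 6, 21.3 and 28.1 on day 7 and 7.76 and 12.8 with Gdf11. Both day 6 libraries were above both day 3 libraries, and the change was 2.29 ± 0.29 (SE; 4.89-fold higher, adjusted p = 2.56e-08). At the landmark genes of this side, none of the 5 tested regions of Evx2, an even-skipped homeobox gene beside Hoxd13, none of the 5 of Lnpk, which shapes the endoplasmic reticulum, and none of the 3 of Atp5g3 passed in any of the 5 comparisons.

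The 3′ side of HoxC had 20 of 124 regions rise and 8 fall, and its 5′ side 6 of 135 rise and 12 fall. At chr15:103065612-103066007, 28.8 kb from Hoxc4, the level was 0.836 and 1.7 CPM on day 2, 1.61 and 3.18 on day 3, 13 and 12.4 on day 6, 24.2 and 28.9 on day 7 and 7.6 and 9.69 with Gdf11. It stayed at or below 3.18 CPM up to day 3, and its change to day 6 was 2.50 ± 0.30 (SE; 5.65-fold higher, adjusted p = 4.78e-09). Beside Copz1, a vesicle coat gene, chr15:103302443-103302602 held less than 1 CPM in each of the first 4 libraries and rose by 3.01 ± 0.42 (SE; 8.03-fold higher, adjusted p = 2.57e-07). Of the regions lower on day 6, chr15:103134640-103135049 fell from 9.94 and 8.66 CPM on day 3 to 4.31 and 2.33 on day 6, a log2 change of -1.43 ± 0.30 (SE; 2.69-fold lower, adjusted p = 0.000358).

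At 6.35 kb from Sp1, chr15:102399239-102399963 fell from 29.2 and 32.9 CPM on day 3 to 15.5 and 14.9 on day 6, a log2 change of -1.02 ± 0.18 (SE; 2.03-fold lower, adjusted p = 2.95e-05). Beside Krt8, a keratin gene of simple epithelia, chr15:102005401-102005905 held 5.64 and 5.49 CPM on day 2, 11.4 and 12.1 on day 3, 4.31 and 3.01 on day 6, 2.97 and 3.54 on day 7 and 4.9 and 4.09 with Gdf11. It was highest on day 3 and fell by 1.64 ± 0.30 (SE; 3.12-fold lower, adjusted p = 3.5e-05) to day 6. The 3′ to 5′ ratio of HoxC was 0.615 and 0.575 on day 2, 0.619 and 0.593 on day 3, 0.744 and 0.732 on day 6, 0.784 and 0.796 on day 7 and 0.757 and 0.751 with Gdf11 over 1 Mb. It rose between day 3 and day 6 by 0.28 ± 0.04 (SE; 1.22-fold higher, adjusted p = 1.4e-06), and passed with each library left out. Neither sum passed on its own, at 0.13 ± 0.06 (SE; 1.1-fold higher, adjusted p = 0.0663) for the 3′ side and -0.15 ± 0.07 (SE; 1.11-fold lower, adjusted p = 0.0808) for the 5′ side.

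Around HoxA, 10 of 109 regions rose and 4 fell on the 3′ side, and 6 of 59 rose and 3 fell on the 5′ side. Inside Skap2, 2 of 13 tested regions rose. At chr6:51961051-51961462 the level was 0 and 1.05 CPM on day 2, 1.02 and 0.866 on day 3, 8.15 and 6.98 on day 6, 14.2 and 10.3 on day 7 and 6.25 and 7.43 with Gdf11, and it rose by 2.97 ± 0.42 (SE; 7.85-fold higher, adjusted p = 2.82e-07). At chr6:52006880-52007228 it was 1.05 and 1.7 CPM on day 2, 3.06 and 2.74 on day 3, 8.95 and 11.5 on day 6, 16.6 and 19.4 on day 7 and 9.71 and 12.9 with Gdf11, and it rose by 1.78 ± 0.29 (SE; 3.44-fold higher, adjusted p = 6e-06). In both, day 7 without Gdf11 was the highest group.

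On the 5′ side of HoxA 2 regions within Jazf1, a zinc finger gene, moved in opposite directions. At chr6:52887731-52888146 the level went from 0.679 and 0.289 CPM on day 3 to 6.07 and 4.24 on day 6, a rise of 3.28 ± 0.51 (SE; 9.73-fold higher, adjusted p = 2e-06), which was 4.12 when day 3 replicate 1 was dropped. At chr6:53044564-53045174 it went from 11.2 and 11.1 CPM on day 2, 4.76 and 4.04 on day 3 to 1.28 and 1.09 on day 6, a change of -1.87 ± 0.42 (SE; 3.66-fold lower, adjusted p = 0.000737) from day 3. Beyond Evx1, at chr6:52368735-52369377, 108 kb from the cluster, the values were 0.836 and 0.915 CPM on day 2, 6.54 and 6.06 on day 3, 16.1 and 11.5 on day 6, 22 and 18.7 on day 7 and 10.8 and 14.1 with Gdf11. It rose by 2.84 ± 0.37 (SE; 7.17-fold higher, adjusted p = 4.17e-08) to day 3 and by 1.14 ± 0.25 (SE; 2.2-fold higher, adjusted p = 0.000525) from day 3 to day 6. Leaving out day 6 replicate 1 gave 0.88 (adjusted p = 0.0741) for the change to day 6.

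Around HoxB 9 of 151 tested regions rose and 14 fell on the 3′ side, and 2 of 129 rose and 10 fell on the 5′ side. Inside Calcoco2, an autophagy receptor gene on the 5′ side, chr11:96124351-96124940 held 32 and 31.8 CPM on day 2, 24.5 and 22.9 on day 3, 9.35 and 8.35 on day 6, 7.65 and 8.1 on day 7 and 5.99 and 8.83 with Gdf11. All later libraries were below all libraries of days 2 and 3, and the change was -1.42 ± 0.21 (SE; 2.67-fold lower, adjusted p = 7.61e-07). Next to Hoxb1, 614 bases from the cluster, chr11:96368868-96369220 fell from 5.1 and 3.9 CPM on day 3 to 0.959 and 2.6 on day 6, a log2 change of -1.46 ± 0.45 (SE; 2.75-fold lower, adjusted p = 0.0177). This change was -1.22 (adjusted p = 0.171) with day 3 replicate 1 left out, and dropping day 6 replicate 1 gave -0.79 (adjusted p = 0.45). With day 6 replicate 2 dropped it was -2.23. Inside Skap1 chr11:96626021-96626681 rose from 1.53 and 1.15 CPM on day 3 to 7.83 and 6.43 on day 6, a log2 change of 2.37 ± 0.38 (SE; 5.18-fold higher, adjusted p = 2.91e-06), and 3 regions of Skap1 rose while 5 fell.

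The 5′ sum of HoxB fell by 0.30 ± 0.07 (SE; 1.23-fold lower, adjusted p = 0.000872), a call kept with each library left out. Its 3′ sum fell by 0.18 ± 0.07 (SE; 1.13-fold lower, adjusted p = 0.038), which did not hold with regions near gene ends left out (-0.10, adjusted p = 0.263) or over 500 kb (-0.14, adjusted p = 0.0911). With day 3 replicate 2 left out the change of this sum was -0.13 (adjusted p = 0.235), dropping day 6 replicate 1 gave -0.16 (adjusted p = 0.157) and dropping day 6 replicate 2 gave -0.18 (adjusted p = 0.121). The ratio of the 3′ to the 5′ sum rose by 0.12 ± 0.04 (SE; 1.09-fold higher, adjusted p = 0.0154). Dropping day 3 replicate 2 took the change of the ratio to 0.11 (adjusted p = 0.0764), and dropping day 6 replicate 1 gave 0.10 (adjusted p = 0.125).

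**Figure D3:**
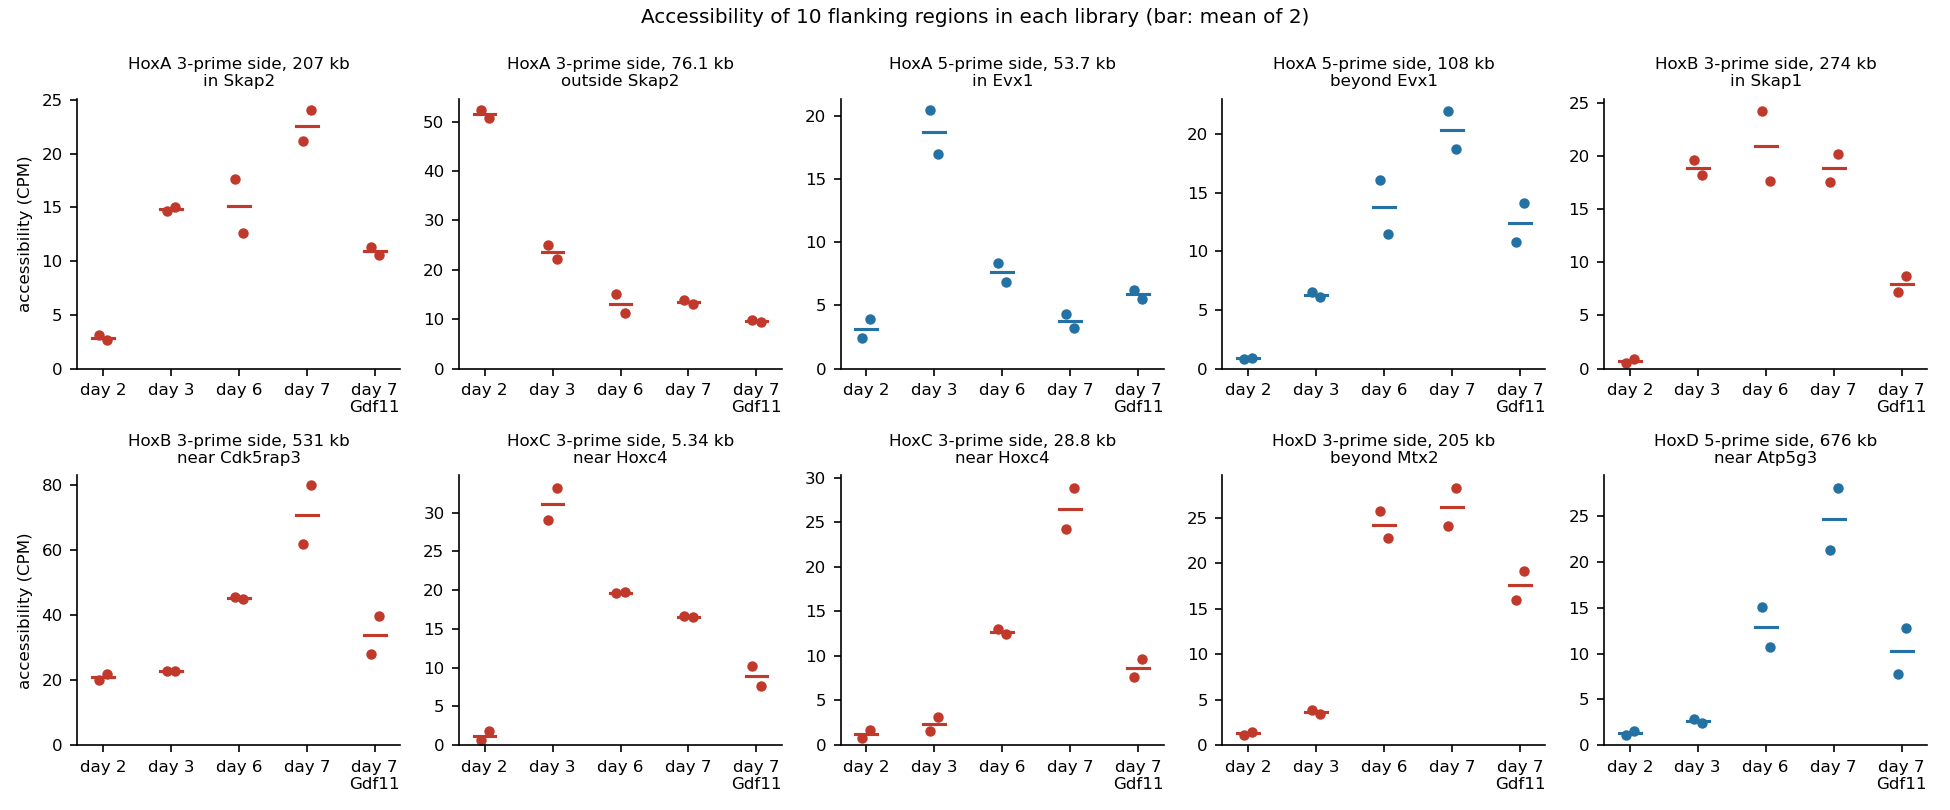
Accessibility in CPM (vertical axes from 0, a scale for each panel) of 10 flanking regions in the 10 libraries; each panel title gives the cluster, side, distance from the cluster and nearby gene, points are libraries and short lines the mean of 2, in red for 3′ and blue for 5′ sides. Several reach their highest level on day 7 without Gdf11, such as the region near Atp5g3 (21.3 and 28.1 CPM), while the region inside Evx1 is highest on day 3.

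Between day 6 and day 7 without Gdf11, 15 of the 18 flanking regions that changed lay on the 3′ sides. Of the 854 tested flanking regions 17 rose and 1 fell, against 0.974% and 0.207% of all tested regions. On the 3′ sides 15 of 467 rose (3.21%) and none fell, where 85 had an unadjusted p under 0.05, and DESeq2 found 14 higher and 0 lower. On the 5′ sides 2 of 387 rose and 1 fell. The median log2 change was 0.12 over tested 3′ regions and -0.02 over tested 5′ regions, beside -0.02 over all regions. Inside the clusters 16 of 232 rose and none fell, where 68 had an unadjusted p under 0.05.

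Between these groups marker lists differed too. The 5 neural genes summed to between 654 and 699 CPM on day 6 and between 855 and 909 CPM on day 7, and the 3 paraxial mesoderm genes to between 60.9 and 67.1 CPM and between 80.6 and 80.8 CPM. The 8 neuromesodermal and caudal epiblast genes summed to between 367 and 369 CPM on day 6 and between 349 and 355 CPM on day 7. For the 6 pluripotency and epiblast genes the sums were 200.2 to 212 CPM and 179.4 to 179.7 CPM, for the 3 endoderm genes 110.0 to 136 CPM and 100.3 to 116 CPM, and for the 5 fibroblast genes 151 to 156 CPM and 164 to 187 CPM. Of all these genes, 1 paraxial mesoderm gene was at 0 in at least 1 of the 10 libraries. Their part in the change was not tested.

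These counts depended on which libraries were kept. Against 18 calls, refits gave 4 when the second day 6 library (replicate 2) was dropped and 10 when replicate 1 of that day was. The refit without replicate 2 of day 7 gave 1 call, and that without its replicate 1 gave 17, which need not be among the 18. Scaling by library size alone gave 10 calls, moved the median over all regions to -0.12 and took the calls over all regions from 1686 higher and 358 lower to 1084 and 459.

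HoxB had 9 of the 15 regions on its 3′ side, where 151 were tested. Near Cdk5rap3, 531 kb from the cluster at chr11:96899206-96900099, the level was 19.97 and 21.8 CPM on day 2, 22.9 and 22.8 on day 3, 45.6 and 45 on day 6, 61.7 and 79.98 on day 7 and 28.1 and 39.8 with Gdf11. Both day 7 libraries exceeded all others, and the rise from day 6 was 0.64 ± 0.16 (SE; 1.56-fold higher, adjusted p = 0.0241). When day 6 replicate 1 was dropped, this change was 0.66 (adjusted p = 0.113), dropping day 6 replicate 2 gave 0.66 (adjusted p = 0.144) and dropping day 7 replicate 2 gave 0.48 (adjusted p = 0.494). Inside Skap1, chr11:96578880-96579230 held 5.85 and 7.06 CPM on day 2, 4.33 and 4.62 on day 3, 8.23 and 7.39 on day 6, 17.7 and 21.7 on day 7 and 8.02 and 10.7 with Gdf11 and rose by 1.32 ± 0.24 (SE; 2.49-fold higher, adjusted p = 0.000591), which passed with each library left out. Near Copz2, chr11:96873627-96874074 rose from 8.71 and 6.57 CPM on day 6 to 16.2 and 29.6 on day 7, a log2 change of 1.54 ± 0.26 (SE; 2.91-fold higher, adjusted p = 0.000161). For this change, dropping day 7 replicate 2 gave 1.10 (adjusted p = 0.0895).

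On the 3′ side of HoxA 4 of 109 regions rose. Inside Skap2, chr6:52006146-52006815 held 8.68 and 11.9 CPM on day 2, 15.2 and 13.3 on day 3, 18.1 and 14.8 on day 6, 25.6 and 39.2 on day 7 and 13.5 and 21 with Gdf11 and rose by 0.95 ± 0.21 (SE; 1.93-fold higher, adjusted p = 0.00696). Leaving out day 6 replicate 2 gave 0.85 (adjusted p = 0.104) for this change, and dropping day 7 replicate 2 gave 0.66 (adjusted p = 0.389).

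Next to Hoxc4 the same comparison gave 2 regions of 124. The region at chr15:103038743-103039163 rose by 1.06 ± 0.24 (SE; 2.08-fold higher, adjusted p = 0.00928). This change was 1.05 (adjusted p = 0.0636) with day 6 replicate 2 left out, and dropping day 7 replicate 2 gave 0.77 (adjusted p = 0.382). The region at chr15:103065612-103066007 rose by 1.05 ± 0.23 (SE; 2.07-fold higher, adjusted p = 0.00708). With day 6 replicate 1 left out this change was 1.10 (adjusted p = 0.0524), dropping day 6 replicate 2 gave 1.05 (adjusted p = 0.0735) and dropping day 7 replicate 2 gave 0.96 (adjusted p = 0.148). On the 5′ side of HoxD the region near Atp5g3 at chr2:73991684-73992190 rose by 0.91 ± 0.24 (SE; 1.88-fold higher, adjusted p = 0.0315). Dropping day 6 replicate 2 took this change to 0.73 (adjusted p = 0.42), and dropping day 7 replicate 2 gave 0.74 (adjusted p = 0.439). It was 0.80 (adjusted p = 0.0809) with library size only and 0.96 (adjusted p = 0.0625) in DESeq2. 5′ of HoxB, a region inside Tac4, a tachykinin gene, at chr11:95263539-95263708, held 4.39 and 3.53 CPM on day 2, 0.595 and 1.3 on day 3, 1.12 and 1.09 on day 6, 0 and 0 on day 7 and 1.18 and 0.646 with Gdf11. With 3 counts allowed over the 2 day 7 libraries it was at least 6.60-fold lower on day 7 than on day 6, but its adjusted p was 0.143 when day 7 replicate 1 was left out and 0.0768 when replicate 2 was.

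Summed over 1 Mb, the 3′ side of HoxA rose by 0.31 ± 0.05 (SE; 1.24-fold higher, adjusted p = 0.000644) and passed with each library left out, where 14.6% of windows of the genome passed. The 3′ side of HoxB rose by 0.28 ± 0.07 (SE; 1.21-fold higher, adjusted p = 0.00824). When day 6 replicate 1 was dropped, this change was 0.27 (adjusted p = 0.0555), dropping day 6 replicate 2 gave 0.28 (adjusted p = 0.0667) and dropping day 7 replicate 2 gave 0.21 (adjusted p = 0.221). None of the 4 sums on the 5′ sides passed, with changes between -0.02 and 0.07. The ratio of the 3′ to the 5′ sum rose for HoxA by 0.30 ± 0.08 (SE; 1.23-fold higher, adjusted p = 0.00638) and for HoxB by 0.20 ± 0.04 (SE; 1.15-fold higher, adjusted p = 0.000942), where 15.9% of pairs passed. The ratio of HoxC changed by 0.10 ± 0.04 SE (adjusted p = 0.0884) and that of HoxD by -0.002 ± 0.06 SE (adjusted p = 0.991). The HoxC ratio passed over 500 kb (0.16, adjusted p = 0.0285) and with regions near gene ends left out (0.19, adjusted p = 0.00643). For the change of the HoxA ratio, dropping day 6 replicate 2 gave 0.31 (adjusted p = 0.0584), and dropping day 7 replicate 2 gave 0.27 (adjusted p = 0.115). Leaving out day 7 replicate 2 gave 0.17 (adjusted p = 0.0539) for the change of the HoxB ratio.

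Gdf11 for 24 h was compared with day 7 without it, and the day 7 libraries are also those of the comparison with day 6. Of the 854 tested flanking regions 39 were lower with Gdf11 (4.57%) and 2 were higher, against 2.65% and 1.09% of all tested regions. On the 3′ sides 32 of 467 fell (6.85%) and none rose, where 112 had an unadjusted p under 0.05, and DESeq2 found 28 lower and 0 higher. On the 5′ sides 7 of 387 fell (1.81%) and 2 rose. The median log2 change was -0.23 over tested 3′ regions and -0.08 over tested 5′ regions, beside 0.03 over all regions. Inside the clusters 35 of 232 fell and 2 rose.

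Over the whole genome the median log2 change in this comparison was -0.12 for regions near gene ends and 0.07 for those away from them. Among the tested 3′ flanking regions the medians were -0.27 near gene ends and -0.22 away from them. Near gene ends 6 of 84 fell, against 1.89% of all such regions, and away from them 26 of 383 fell, against 2.78%. Scaling by library size alone moved the median over all regions to 0.19 and the calls over all regions from 1883 higher and 4581 lower to 2626 and 2649, and gave 22 lower and 1 higher on the 3′ sides. The number of flanking calls went from 41 to 14 when replicate 2 of day 7 was dropped and to 16 when replicate 1 of Gdf11 was. It was 32 and 41 without the other libraries. Marker lists moved as well. Regions of 5 neural genes summed to between 855 and 909 CPM on day 7 and between 578 and 614 CPM with Gdf11, and those of 3 paraxial mesoderm genes to between 80.6 and 80.8 CPM and between 43.3 and 49.3 CPM. The 8 neuromesodermal and caudal epiblast genes went from between 349 and 355 CPM on day 7 to between 281 and 298 CPM with Gdf11. The 6 pluripotency and epiblast genes went from between 179.4 and 179.7 CPM to between 212 and 220.4 CPM. The sum of 3 endoderm genes was 100.3 to 116 CPM on day 7 and 119 to 130.1 CPM with Gdf11, and that of the 5 fibroblast genes was 164 to 187 CPM and 173 to 177 CPM. Their part in the result was not tested.

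Beside the clusters on the 3′ sides 10 of 41 tested regions within 50 kb fell (24.4%), including 6 of 14 next to Hoxc4, 1 of 10 next to Hoxb1 and 0 of 5 next to Hoxd1. Of the 17 tested regions within 50 kb on the 5′ sides none fell or rose. Between 500 kb and 1 Mb on the 3′ sides 10 of 178 fell (5.62%).

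Next to Hoxc4, chr15:103065612-103066007 fell from 24.2 and 28.9 CPM on day 7 to 7.6 and 9.69 with Gdf11, a log2 change of -1.62 ± 0.24 (SE; 3.07-fold lower, adjusted p = 4.7e-06), and chr15:103038743-103039163 changed by -1.11 ± 0.24 (SE; 2.17-fold lower, adjusted p = 0.00191). The groups did not overlap at either. The first call held with each library left out. The second change was -0.83 (adjusted p = 0.155) with day 7 replicate 2 left out, and dropping Gdf11 replicate 1 gave -0.76 (adjusted p = 0.192). The region over the Gm30528 promoter fell by 1.12 ± 0.27 (SE; 2.17-fold lower, adjusted p = 0.00631). With day 7 replicate 2 left out this change was -1.02 (adjusted p = 0.105), and dropping Gdf11 replicate 1 gave -0.87 (adjusted p = 0.237). Summed over the 1 Mb 3′ side, HoxC fell by 0.23 ± 0.06 (SE; 1.17-fold lower, adjusted p = 0.00542), where 31.5% of windows of the genome passed. Dropping day 7 replicate 2 took this change to -0.20 (adjusted p = 0.103).

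In Skap2 3 of 13 tested regions fell. Among them chr6:51947696-51948429 changed by -1.04 ± 0.21 (SE; 2.05-fold lower, adjusted p = 0.00107) and chr6:52006146-52006815 by -0.90 ± 0.21 (SE; 1.87-fold lower, adjusted p = 0.0044). When day 7 replicate 2 was dropped, the second change was -0.60 (adjusted p = 0.29), and dropping Gdf11 replicate 1 gave -0.63 (adjusted p = 0.212). At the first of these, both Gdf11 libraries lay below the libraries of days 3, 6 and 7 and above those of day 2. The 3′ sum of HoxA changed by -0.32 ± 0.05 (SE; 1.251-fold lower, adjusted p = 0.000187) and the ratio of the 3′ to the 5′ sum by -0.42 ± 0.08 (SE; 1.34-fold lower, adjusted p = 0.000143), where 28.2% of pairs passed. Both calls held with each library left out.

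On the 5′ side of HoxA 1 region inside Jazf1 rose with Gdf11. At chr6:52952135-52952489, 691 kb from the cluster, the level was 0.105 and 1.57 CPM on day 2, 1.02 and 0.577 on day 3, 0.719 and 1.09 on day 6, 0.540 and 0.589 on day 7 and 5.82 and 9.36 with Gdf11. Both Gdf11 libraries were above all 8 others, with a log2 change of 3.72 ± 0.57 (SE; 13.2-fold higher, adjusted p = 1.05e-05) that held with each library left out. Peaks were called there in 2 of the 10 libraries. Near Hibadh chr6:52539940-52540457 fell by 1.23 ± 0.30 (SE; 2.34-fold lower, adjusted p = 0.00723). For this change, dropping Gdf11 replicate 2 gave -0.97 (adjusted p = 0.113).

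On the 3′ side of HoxB 14 of 151 regions fell. The change was -1.51 ± 0.25 (SE; 2.85-fold lower, adjusted p = 5.51e-05) at chr11:96873627-96874074 near Copz2 and -1.06 ± 0.16 (SE; 2.09-fold lower, adjusted p = 8.85e-06) at chr11:96899206-96900099 near Cdk5rap3. Inside Skap1, where 3 of 33 tested regions fell, chr11:96642371-96643039 went from 17.5 and 20.2 CPM on day 7 to 7.17 and 8.72 with Gdf11, a change of -1.25 ± 0.22 (SE; 2.37-fold lower, adjusted p = 0.00016). The promoter region of Snx11 printed above, chr11:96777288-96777962, chosen for its sequence, held 43.6 and 48.2 CPM on day 2, 45.7 and 46.6 on day 3, 38.7 and 35.6 on day 6, 47.1 and 48 on day 7 and 36 and 29.9 with Gdf11. The Gdf11 libraries were below those of day 7, with a change of -0.52 ± 0.15 (SE; 1.44-fold lower, adjusted p = 0.036), and overlapped those of day 6. Leaving out day 7 replicate 1 gave -0.54 (adjusted p = 0.141) for this change, dropping day 7 replicate 2 gave -0.54 (adjusted p = 0.18) and dropping Gdf11 replicate 2 gave -0.44 (adjusted p = 0.262). It was -0.36 (adjusted p = 0.163) with library size only. The 3′ sum of HoxB changed by -0.40 ± 0.07 (SE; 1.32-fold lower, adjusted p = 0.00018) and the ratio by -0.25 ± 0.04 (SE; 1.19-fold lower, adjusted p = 5.54e-05). Both passed with each library left out.

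Around HoxD 0 of 83 tested 3′ regions and 1 of 64 tested 5′ regions passed in this comparison. That region, chr2:73991684-73992190 near Atp5g3, fell from 21.3 and 28.1 CPM on day 7 to 7.76 and 12.8 with Gdf11, a log2 change of -1.27 ± 0.24 (SE; 2.41-fold lower, adjusted p = 0.000329). This change was -0.96 (adjusted p = 0.0595) with Gdf11 replicate 1 left out. The 5′ sum of HoxD was the only sum on a 5′ side to pass, at -0.15 ± 0.06 (SE; 1.11-fold lower, adjusted p = 0.0475). It did not pass with any library left out. With day 7 replicate 1 left out this change was -0.16 (adjusted p = 0.119), dropping day 7 replicate 2 gave -0.16 (adjusted p = 0.152), dropping Gdf11 replicate 1 gave -0.20 (adjusted p = 0.0564) and dropping Gdf11 replicate 2 gave -0.13 (adjusted p = 0.218). Nor did it pass over 500 kb (-0.13, adjusted p = 0.293) and with library size alone (-0.10, adjusted p = 0.324). In the 1 Mb window fit the 5′ sum of HoxB changed by -0.15 ± 0.07 SE (adjusted p = 0.0758). That of HoxC changed by -0.16 ± 0.07 SE (adjusted p = 0.0737). Both passed in DESeq2, with the replicate number as a block and with mitochondrial regions left out. The 5′ sum of HoxA changed by 0.09 ± 0.07 SE (adjusted p = 0.294) and the 3′ sum of HoxD by -0.13 ± 0.05 SE (adjusted p = 0.0616). The 3′ to 5′ ratio of HoxD changed by 0.02 ± 0.06 (SE; 1.01-fold higher, adjusted p = 0.869), and that of HoxC by -0.07 ± 0.04 (SE; 1.05-fold lower, adjusted p = 0.221), neither of which passed. With regions near gene ends left out, the HoxC ratio did pass in the limma fit (-0.17, adjusted p = 0.0101).

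**Figure D4:**
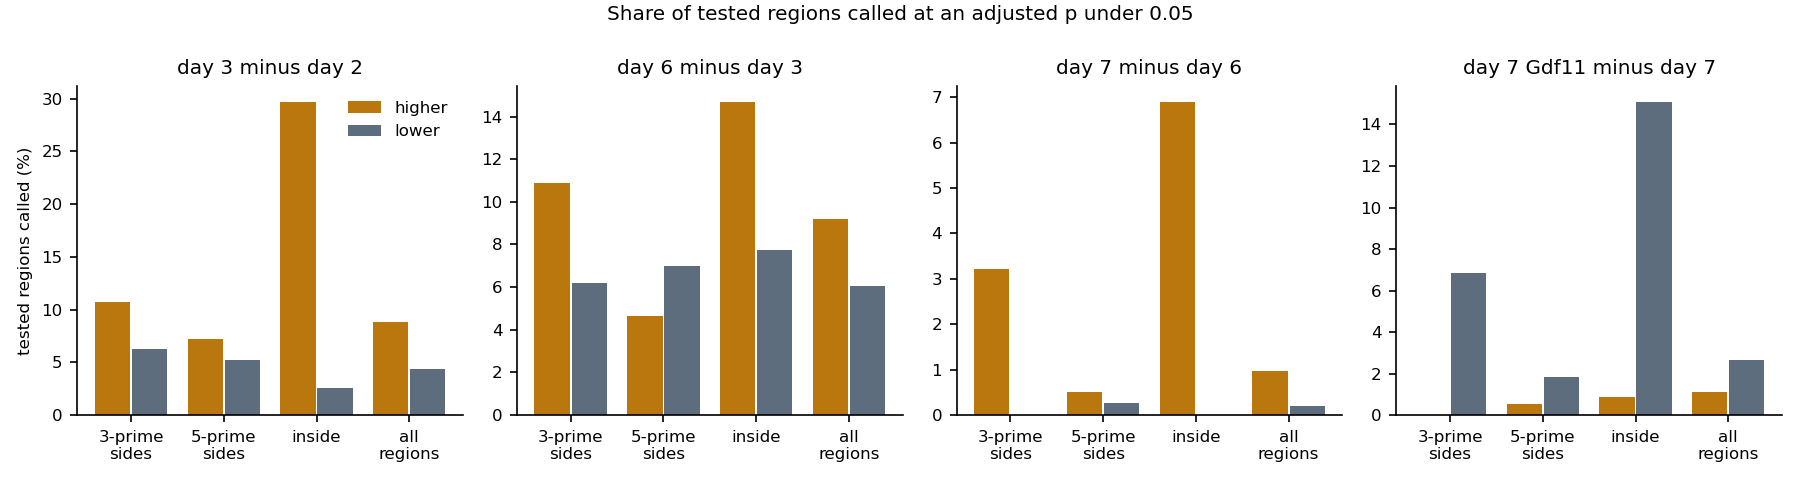
Share of tested regions (%, vertical axis from 0, a scale for each panel) called higher (ochre) or lower (grey) at an adjusted p under 0.05 on the 3′ sides, on the 5′ sides, inside the clusters and over all regions, in 4 comparisons. With Gdf11 6.85% of tested 3′ regions and 1.81% of tested 5′ regions were lower, against 2.65% of all regions.

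Day 7 with Gdf11 was also set against day 6, a comparison added after the data were seen. Here 6 of 854 flanking regions were higher and 5 lower, against 1.06% and 1.34% of all tested regions, and none of the 8 sums passed, with adjusted p from 0.0952 to 0.872, where 10.8% of windows passed. No ratio passed either, where 8.51% of pairs did. Of the 11 region calls 3 held with each library left out. Inside Skap1 chr11:96642371-96643039 changed by -1.42 ± 0.22 (SE; 2.67-fold lower, adjusted p = 2.81e-05), next to Hoxc4 chr15:103042198-103042768 by -1.13 ± 0.22 (SE; 2.18-fold lower, adjusted p = 0.000773), and inside Jazf1 chr6:52952135-52952489 by 3.09 ± 0.53 (SE; 8.54-fold higher, adjusted p = 0.000126). The number of calls was between 4 and 6 with 1 library left out, and it was lowest, at 4, without day 6 replicate 2.

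Set side by side, the 3′ to 5′ ratio of HoxA was 3.01 and 2.77 on day 2, 2.65 and 2.85 on day 3, 2.62 and 2.67 on day 6, 3.2 and 3.31 on day 7 and 2.51 and 2.37 with Gdf11, and that of HoxB was 1.27 and 1.24 on day 2, 1.22 and 1.2 on day 3, 1.33 and 1.3 on day 6, 1.48 and 1.54 on day 7 and 1.253 and 1.29 with Gdf11. These are ratios over 1 Mb. In both clusters the day 7 pair without Gdf11 was above every other library, and the Gdf11 pair was below the day 6 pair. The change from day 6 to Gdf11 did not pass in the limma fit (adjusted p = 0.34 for HoxA and 0.521 for HoxB). Over 500 kb the day 2 ratios of HoxA were above those of day 7. There Gdf11 overlapped day 6 in both clusters, with log2 changes of 0.009 for HoxA and 0.024 for HoxB. Over 500 kb the 3′ sum of HoxA was 279.9 and 291 CPM on day 2, 257 and 243 on day 3, 261 and 247 on day 6, 337 and 346 on day 7 and 253 and 251 with Gdf11.

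**Figure D5:**
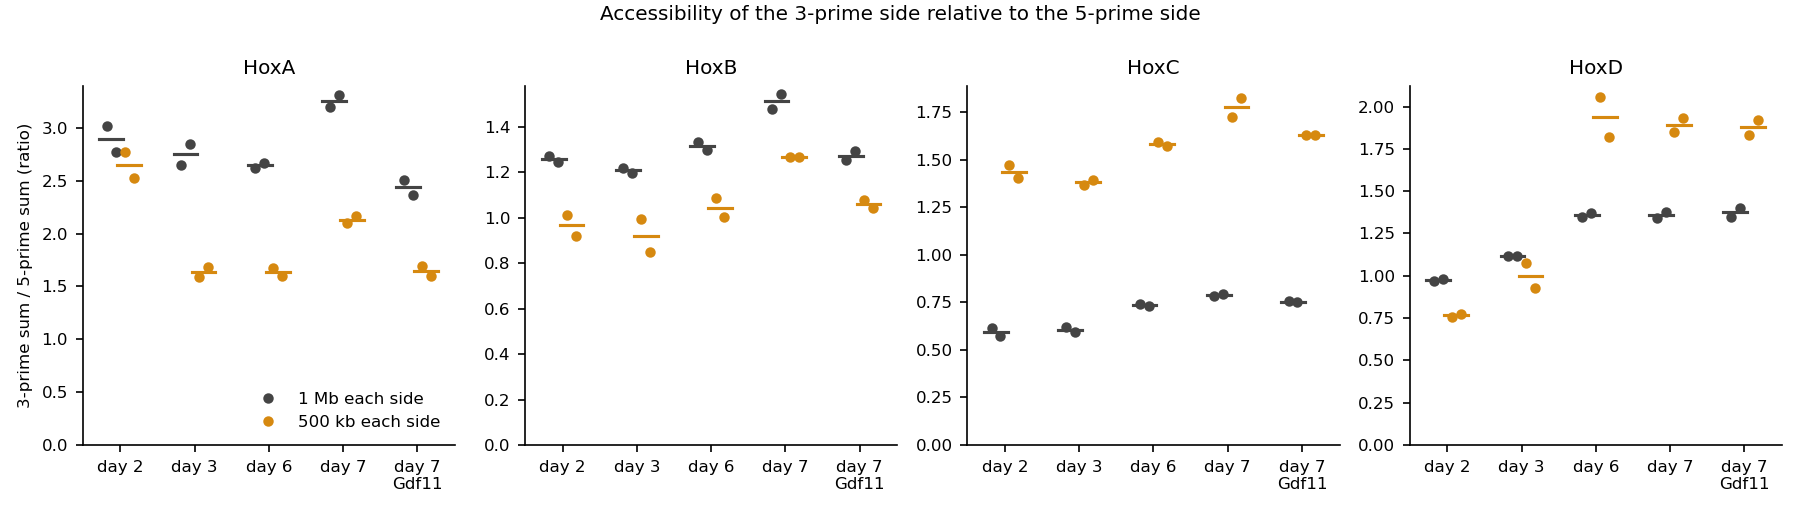
Ratio of the summed 3′ to the summed 5′ accessibility (vertical axis from 0, a scale for each cluster) over 1 Mb (grey) and 500 kb (ochre) on each side, by group; points are libraries and short lines the mean of 2. The ratio of HoxD rises from day 2 to day 6 at both widths, that of HoxA falls from day 2 to day 3 at 500 kb, and those of HoxA and HoxB over 1 Mb are highest on day 7 without Gdf11.

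At the remaining landmark genes few regions moved. Of 7 tested regions of Snx10 3′ of HoxA, 4 of Hnrnpa3 3′ of HoxD, 4 of Cbx1 3′ of HoxB and 2 of Calcoco1 5′ of HoxC, none passed in any of the 5 comparisons. Cbx5, which encodes the heterochromatin protein HP1 alpha 3′ of HoxC, had 1 of 7 tested regions rise at day 3 and 1 at day 6, and Mtx2 had 1 of 3 rise at each. Smug1 had 1 of 6 rise at day 6. Skap1 and Skap2, the 3′ neighbours of HoxB and HoxA, had changed regions in each of the 4 planned comparisons, and so had Jazf1 on the 5′ side of HoxA. These genes had the most tested regions of the 16 landmark genes, with 33 for Skap1, 13 for Skap2 and 21 for Jazf1.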

How the data were processed

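Read counts per merged region and peak lists per library were deposited by the authors, 1 of each for each of the 10 libraries. The counts are raw whole numbers over regions without coordinates. Coordinates were recovered by merging the 10 deposited peak lists with chromosomes in character order, which gave the same number of regions, 246799. In that order no region with a library's own peak had a count of 0 in it, against 1173 to 10176 per library in numeric order. The peak lists give the authors' fold enrichment, a ratio, and the -log10 q-value of each peak as deposited, called per library. HISAT2 2.1.0, SAMtools, MACS2 2.1.1.20160309, bedtools, HOMER 4.10 and build mm10 are named in the submitters' processing notes; the read counter is not given in the sources used here. Mapped gene positions, including distances to genes and gene ends (within 1 kb), came from the RefSeq gene table of that build's assembly.

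All regions were fitted together with edgeR 4.0.16 in R 4.3.3 (filterByExpr, TMM factors, quasi-likelihood F test, 1 fit of the 10 libraries by group, Benjamini-Hochberg adjustment over all 173175 tested regions, threshold 0.05). Summed sides were tested in the same way among 2575 windows of 1 Mb over the genome. Ratios of 3′ to 5′ sums were tested with limma 3.58.1 among 1258 pairs of neighbouring windows (counts + 0.5, mean count of at least 50). The ratio test and the comparison of Gdf11 with day 6 were added after seeing the data. DESeq2 1.42.0 was an alternative. On data simulated for day 3 against day 2, the region fit recovered 82% of 4-fold and 6% of 2-fold changes, the window fit 87% of 1.25-fold changes, and the pair fit 31% of 1.25-fold and 94% of 1.5-fold changes. Calls among unchanged features numbered 6 for regions, 14 for windows and 3 for pairs. The pair simulation used a spread set by hand, not estimated from these libraries, so its shares need not hold for the pair fit here.

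Planned permutation tests of summed scores over the members were not run, because a p for a score over chosen members would support nothing; the genome-wide window and pair fits stand in their place, and ratios of a flank to its cluster are descriptions. Regions were named by a rule: per comparison and side, up to 2 per direction with the smallest p past the threshold and no overlap between groups, plus, per side, the highest region and the tested region nearest to the cluster. Some results that this rule names are not reported here. The members, gene lists and tests were chosen with earlier results of these data known. Where a group had no counts, its fold is a lower bound, with 3 counts allowed over the group. No pairing of libraries by replicate number is stated, and the main fits use none. Correlations between same-numbered libraries' deviations ran from -0.00074 to 0.0326 over 10 pairs of groups. They rest on single regions, so they cannot show whether libraries of the same number belong together. In every group replicate 1 had the higher total counts and replicate 2 the higher 3′ sum of HoxB. Fits with the replicate number as a block are given below.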

Additional observations from a re-analysis of the deposited data

How the results depend on the processing

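Leaving out 1 library took the number of flanking regions called from 127 to between 78 and 95 (day 3 against day 2), from 125 to between 60 and 85 (day 6 against day 3), from 18 to between 1 and 17 (day 7 against day 6), from 41 to between 14 and 41 (Gdf11 against day 7) and from 11 to between 4 and 6 (Gdf11 against day 6). The number of summed sides called went from 2 to between 1 and 3, from 3 to between 1 and 3, from 2 to between 1 and 2 and from 4 to between 2 and 3 in the first 4 of these, and the number of ratios from 1 to between 0 and 1 on day 3 and from 2 to between 0 and 2 on day 7. DESeq2 called 75, 69 and 3 regions on day 3, on day 6 and for Gdf11 against day 6, and 5 and 2 sides for day 6 against day 3 and for Gdf11 against day 6. Flanks of 500 kb, which hold fewer regions, gave 80, 83, 8, 23 and 7 regions in the order above, 4 sides and 2 ratios on day 3. Library size alone gave 10 regions on day 7 and 5 sides on day 6. With mitochondrial regions left out 7 sides were called for Gdf11 against day 7. Without regions near gene ends 1 side was called for Gdf11 against day 6 and 3 ratios on day 3. A fit of the 4 libraries alone gave 22 regions for Gdf11 against day 6. With a peak required to cover at least 50% of a region, 206 flanking regions on day 6 had a peak in both libraries (18.4%, against 15.8% of all regions). With Gdf11 213 did (19.0%, against 18.3%). The cause of these shifts was not tested. No result changed direction under an alternative that kept or gave it a call.

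With the replicate number as a block, 132, 140, 25, 67 and 16 flanking regions were called in the same order of comparisons, against 127, 125, 18, 41 and 11 without it. The block fits called 5 sides on day 6, 7 sides for Gdf11 against day 7 and 2 sides for Gdf11 against day 6. Of the named regions' values under settings other than a left-out library, 731 kept their side of the threshold and 27 fell short of it; with a library left out, 318 did and 118 did not. The planned permutation tests over the summed scores were not run. Depth limits the weaker regions: 266 of the 1120 had too few counts to be tested.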
